A study of Mus musculus with 38 samples.

Results

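Brown adipose tissue of C57BL/6J mice on a high fat, high sucrose diet (the HFC group) was followed over 10 labelled time points, to learn how this tissue changes with time on that diet. The 10 HFC arrays, of 38 in the whole series, were taken by their labels and divided into 3 periods. The early period held the 4 arrays of Day 6, Day 10, Day 14 and Week 0, the middle period the 3 arrays of Weeks 3, 6 and 9, and the late period the 3 arrays of Weeks 12, 15 and 18. Weeks were counted from day 14 of feeding, so that Day 14 and Week 0 are the same number of days. The mice entered the diet after weaning, at 3 to 4 weeks of age, and fat supplied 60% of the calories of the HFC diet. The background was a low fat control group (LFC) of the same strain and age, whose diet drew 10% of its calories from fat and which had 10 arrays at the same time points. The labels name no transgene and no further agent for either group. Each diet had 1 array per time point, although the design text speaks of 3 biological replicates, and the sources do not say whether an array holds 1 animal or a pool. The time points of a period therefore stood in for replicates, and p values measure only the spread between these samples, which may be technical. Each HFC array was scanned on a day of its own (10 scan days), so time on diet, age and scan day cannot be told apart within the group. At 9 of the 10 time points the LFC array was scanned on the same day as the HFC array. In changes common to both diets, age and scan day therefore cannot be told apart either.

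Brown fat burns fatty acids and glucose to make heat. Noradrenaline from sympathetic nerves acts on beta adrenergic receptors of the brown adipocyte, lipolysis frees fatty acids, and the mitochondrial carrier Ucp1 lets protons back into the matrix without ATP synthesis. In the weeks after weaning the depot is still growing, and long feeding on fat is known for filling brown adipocytes with lipid and for changing the immune cells and vessels between them.

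Levels are given as log2 of the processed signal minus the 75th percentile of the array, and changes as differences of these log2 levels. Levels of different genes were measured by different probes and are not set against each other. The defining brown fat markers were present on every HFC array: Ucp1 lay between 5.00 and 8.15 and Cidea, a lipid droplet protein of brown adipocytes, between 5.79 and 8.04. Of the skeletal muscle list of 23 genes, the median level was 3.91 on Day 10 and between -4.66 and 1.47 on the other HFC arrays.

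The HFC arrays of Day 10 (early) and Week 3 (middle) stood apart from the other 8 in several lists at once. They were also the brightest HFC arrays, with a 75th percentile signal of 597.3 and 744.6 against 51.29 to 459.4 on the other 8. Saturated spots numbered 285 and 488 on them, against 7 to 148. Immediate early genes, which are induced within minutes by stimulation or handling, had a median level of 0.18 on Day 10 and 0.42 on Week 3 but 3.23 to 5.57 on the other 8. Endothelial markers had 1.76 and 1.52 against 3.44 to 4.86. In the other direction the thermogenic list had 3.16 and 3.49 on these arrays and -1.33 to 1.17 elsewhere. Fos, an immediate early transcription factor, was at -3.45 and -2.78 on them and between 3.38 and 6.37 on the rest. The LFC arrays of Weeks 0, 3, 9 and 12 showed the same combination, with immediate early medians of -0.75, 1.19, -0.22 and -0.20 against 4.78 to 5.29 on the other 6. These were likewise the brightest LFC arrays, with a 75th percentile signal of 707 to 1315 against 156.2 to 385.8 on the other 6. The split thus followed array brightness in both diets, and its cause was not tested. Because 1 of these HFC arrays is early and the other in the middle, lists of mitochondrial, lipid and endothelial genes carry a wide spread in the early period, and medians that move by over 1.5 times without Day 10 are given without it for the lists described at length. The part of these differences in the results was not tested.

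**Figure D1:**
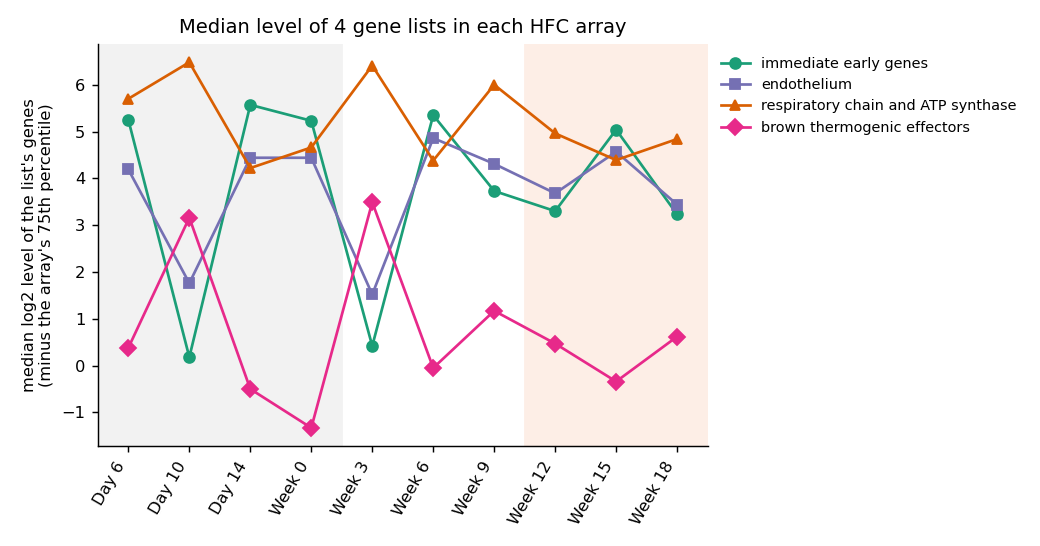
Median level (log2 signal minus the array's 75th percentile, y axis) of the tested genes of 4 lists in each of the 10 HFC arrays (x axis, in order of time), with the early period in grey and the late period in pink. Day 10 and Week 3 lie apart: immediate early genes are at 0.18 and 0.42 there, and at 3.23 to 5.57 elsewhere.

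Across 21785 genes tested with limma, 1 gene passed an adjusted p of 0.05 between the late and the early period: Sult1e1, the estrogen sulfotransferase, which rose. It made up 0.00459% of the genes tested. At an unadjusted p under 0.05, 3895 genes were higher late (17.9%) and 991 were lower (4.55%). The linear trend over days on diet, which uses all 10 arrays without periods, called more genes: 1643 passed an adjusted p of 0.05 with limma (7.54%), of which 1557 rose along the course (7.15%) and 86 fell (0.395%). The trend calls rest on the latest array and on the scale of time. Without Week 18 there were 0 (2766 at an unadjusted p under 0.05), and with days on a log2 scale, with the mere order of the time points, or with array brightness as a covariate there were also 0 (3281, 4471 and 1654 at an unadjusted p under 0.05). With normexp background correction there were 0 as well, with 10905 at an unadjusted p under 0.05. In the LFC group the same late against early comparison called 0 genes with limma, with 252 higher (1.16%) and 434 lower (1.99%) at an unadjusted p under 0.05. The LFC arrays set apart above for their brightness lie in every period. Without LFC Week 0 the unadjusted calls went from 686 to 1386, and without LFC Week 12 to 1304, again with 0 passing. With any other early or late LFC array left out they were 434 to 549. The low LFC shares therefore do not show that the tissue stayed the same on that diet.

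The excess of genes higher late in HFC lay among dim genes. When the 21785 genes were ordered by mean level into 10 groups of 2178 or 2179, the median change from early to late was 2.07 in the dimmest group, 1.69 in the next, -0.02 at the fifth decile and -0.42 at the eighth. In LFC the same medians lay between -0.07 and 0.13 in every group. On the HFC arrays 43.6% to 78.8% of spots were well above background, most on Week 12 and fewest on Week 9. The lower end of the levels was raised on the late arrays: their 25th percentile was -2.12, -3.24 and -2.72 on Weeks 12, 15 and 18, against -4.30 to -3.40 on the 4 early arrays. Quantile normalization, which gives every array the same distribution, reduced the change of the dimmest group to 0.60 and turned the split of unadjusted calls from 3895 higher and 991 lower to 2026 higher (9.3%) and 2711 lower (12.4%). With it 88 genes were higher (0.404%) and 25 lower (0.115%) at an adjusted p under 0.05 with limma, and the trend called 658 higher and 204 lower. With cyclic loess normalization, added after the data were seen, 2033 genes were higher and 1430 lower at an unadjusted p under 0.05, and the trend called 674 higher and 137 lower. With normexp background correction 1661 were higher and 2026 lower at an unadjusted p under 0.05. The higher genes named below that lie in the 4 dimmest groups are to be read beside these medians. Igfbp2 lies in the dimmest group (2.07), Adh4 and Rnf208 in the next (1.69), Sult1e1, Dbndd1, Elovl3, Tpsb2, Fcer1a and Tfeb in the one after it (1.08), and Rbpjl, Esrrg, Cd3e and Sh2d2a in the following one (0.45). Likewise the counts of each list stand against the shares of all genes, 17.9% higher and 4.55% lower late at an unadjusted p under 0.05.

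**Figure D2:**
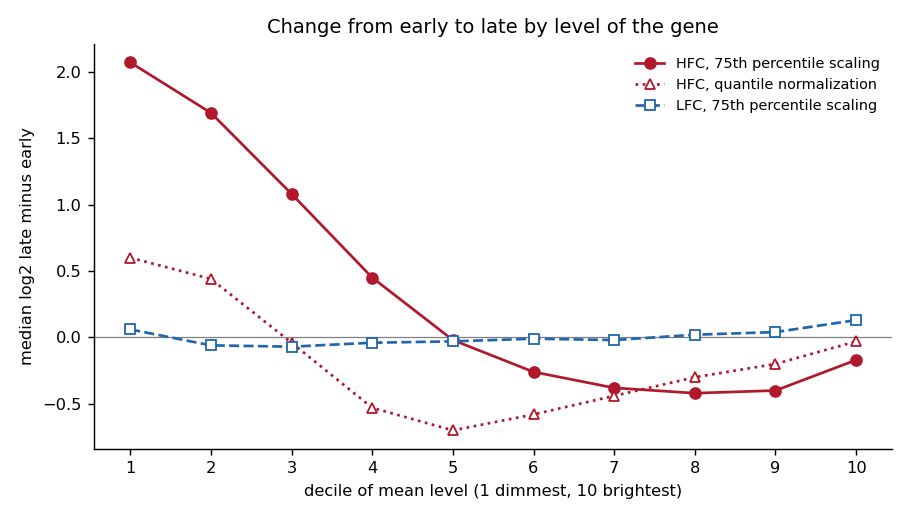
Median late minus early difference (log2, y axis) of the genes in each of 10 groups ordered by mean level (x axis, 1 dimmest, 10 brightest), for HFC with the 75th percentile scaling, HFC after quantile normalization, and LFC. In HFC the dimmest group is at 2.07 and the eighth at -0.42, while all LFC points lie between -0.07 and 0.13.

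Sult1e1 inactivates estrogens by sulfation and is known in adipose tissue for its rise in obesity and with glucocorticoids. Its level was -4.73, -4.81, -4.54 and -5.11 on the early arrays, -4.03, -4.62 and -3.67 on the middle arrays, and -1.18, -1.26 and -1.06 on Weeks 12, 15 and 18. The 3 late arrays were almost equal and all lay above every earlier one. The late period exceeded the early one by 3.63 (SE 0.34), 12.4-fold, with an adjusted p of 0.023 with limma, and the trend was 3.14 per 100 days (adjusted p = 0.0142 with limma). It was well above background on 3 of 4 early, 1 of 3 middle and 3 of 3 late arrays. Leaving out each array in turn kept the change between 3.53 and 3.72, but the adjusted p stayed under 0.05 only without Week 15 or without a middle array; without an early array, Week 12 or Week 18 it was 0.056 to 0.234. It was also not called with cyclic loess (2.67, adjusted p = 0.0831 with limma) or with normexp background correction (1.62, adjusted p = 0.247 with limma). In LFC the gene was at -5.23, -5.33, -6.03 and -5.58 early and at -1.94, -2.51 and -4.03 late, a difference of 2.71 that also had no overlap between the periods. The difference of the change between the diets was 0.92 (adjusted p = 0.674 with limma).

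Among genes with a known symbol whose periods did not overlap, the next smallest p values of higher genes belonged to Plcd3, Cask, Lrrn2, Rbpjl and Dbndd1, none of which passed late against early (adjusted p = 0.055 to 0.0654 with limma). Plcd3, a phospholipase C that splits membrane phosphoinositides, was at 0.61, 0.36, 0.34 and -0.58 early, at 0.50, -0.59 and 0.15 in the middle, and at 3.61, 4.47 and 4.92 late. The step lay between Week 9 and Week 12, and the change was 4.15 (SE 0.47, adjusted p = 0.055). With quantile normalization it passed (4.47, adjusted p = 0.0186 with limma), and with cyclic loess it was the single call (4.33, adjusted p = 0.0297 with limma). In LFC Plcd3 was at 0.41 on Week 12 but at 5.47 and 4.94 on Weeks 15 and 18, and already at 4.59 on Day 14. Cask, a scaffold of synapses and cell junctions, was 3.43 higher late (SE 0.44) in HFC, and in LFC it was at -1.31 on Week 12 and 4.10 and 3.41 on Weeks 15 and 18. For Cask 3 other probes changed by -0.69 to 0.68. Lrrn2, a leucine rich repeat membrane protein, was 4.40 higher (SE 0.55), and Rbpjl, a pancreatic paralog of the Notch effector Rbpj, 4.45 (SE 0.58). Both showed the LFC pattern of Plcd3 and Cask, low on Week 12 and high on Weeks 15 and 18. Dbndd1 was 3.05 higher (SE 0.42) in HFC and 1.06 lower in LFC, where its periods overlapped (difference between the diets 4.11, adjusted p = 0.527 with limma). Along the linear trend Plcd3, Cask, Lrrn2 and Rbpjl rose with adjusted p values of 0.0142 to 0.0238 with limma.

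**Figure D3:**
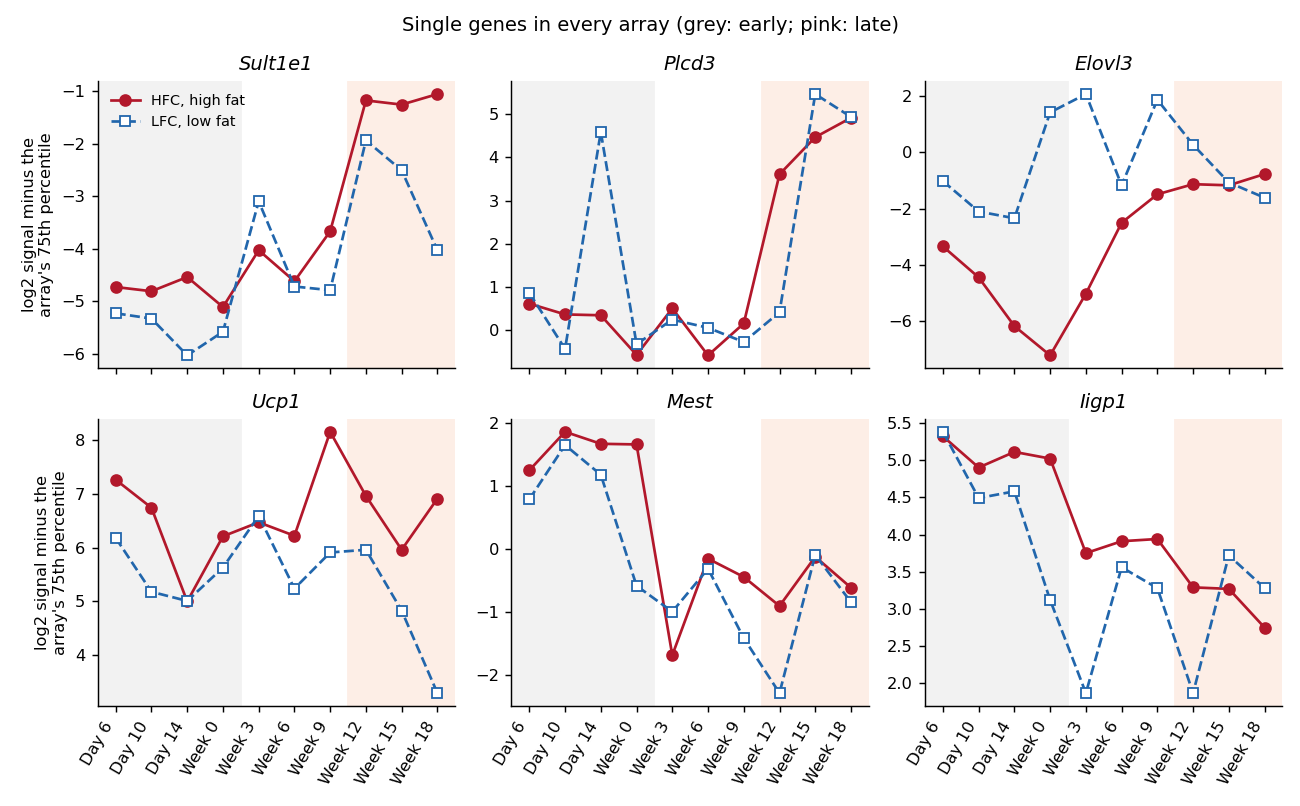
Level (log2 signal minus the array's 75th percentile, y axes) of 6 genes on each array in order of time (x axes), HFC as filled red circles and LFC as open blue squares, 1 array per point. Sult1e1 and Plcd3 step up on HFC Weeks 12 to 18, Elovl3 climbs from Week 0, Ucp1 overlaps between the periods, Mest is lower on all arrays after Week 0, and Iigp1 is lower on every late than on every early HFC array.

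Among brown thermogenic effectors 1 of 13 tested genes passed along the trend, a share close to the 7.15% of all genes that rose. It was the fatty acid elongase Elovl3, which is known to be strongly induced by cold and adrenergic signals in brown fat. It was at -3.34, -4.44, -6.17 and -7.21 on the early HFC arrays, at -5.02, -2.50 and -1.49 on Weeks 3, 6 and 9, and at -1.13, -1.17 and -0.77 on the late ones. It was lower on each array from Day 6 to Week 0 and higher on each from Week 3 to Week 12, and every late array lay above every early one. It rose along the trend by 3.90 per 100 days (SE 0.81, adjusted p = 0.0239 with limma), and late exceeded early by 4.27 (SE 1.0, adjusted p = 0.069). Elovl3 was well above background on 2 of 4 early and on all middle and late arrays, so its early level is close to the background. In LFC the periods overlapped and differed by 0.21. Levels there were 1.42, 2.07, 1.87 and 0.27 on Weeks 0, 3, 9 and 12, the LFC arrays set apart above. On the rest of the LFC arrays they were -2.34 to -1.02. The change differed between the diets by 4.06 (adjusted p = 0.527 with limma).

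The other thermogenic genes had no such course. Ucp1 was at 7.26, 6.74, 5.00 and 6.21 early, at 6.47, 6.22 and 8.15 in the middle and at 6.96, 5.96 and 6.91 late, with overlapping periods and a difference of 0.31 (SE 0.64, adjusted p = 0.804 with limma). Cidea differed by 0.30 (SE 0.69). The Cidea spot was saturated on Day 10 and Week 3 and the Ucp1 spot on Week 3, so the levels there are lower bounds; without Day 10 Cidea differed by 0.24. Over the 13 tested members the median change was -0.02 (0.45 without Day 10), against 0.04 over all genes, with 6 differences above and 7 below 0. Apart from Elovl3 these differences lay between -1.02 and 0.39, and the periods overlapped in each of these 12 genes. Bmp8b, the remaining gene of the list, was too dim to test.

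Of the 18 regulators of brown fat identity, 1 was higher and 2 were lower late at an unadjusted p under 0.05, and the median change was -0.41 (-0.01 without Day 10). Esrrg, an orphan nuclear receptor that drives oxidative genes, was at -2.71, -4.22, -3.24 and -3.56 early and at -0.28, -2.30 and 0.69 late. Its late arrays were higher and spread widely, and it rose along the trend by 2.58 per 100 days (adjusted p = 0.031 with limma), while its second probe differed by -1.46. Pparg, the master regulator of adipocytes, was at 5.21, 5.57, 4.96 and 5.73 early and at 4.72, 4.82 and 3.99 late, a difference of -0.86 (SE 0.36, adjusted p = 0.193 with limma). In LFC Pparg differed by 0.29 with overlapping periods. The retinoblastoma gene Rb1 was the other lower one, at -0.80 (SE 0.32) for the probe kept and 1.14 for a second probe. Ppargc1a, the coactivator of mitochondrial genes, was at 3.49 and 3.73 on Day 10 and Week 3 and between -1.13 and 0.26 on the other HFC arrays, and its periods overlapped. Adrb3, the receptor for noradrenaline, followed the same 2 arrays (5.76 and 5.05, against 0.60 to 2.27).

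The mitochondrial lists had small median differences, all below 0. Respiratory chain genes (28 tested) had a median change of -0.44, with 24 of 28 below 0, citrate cycle genes (15) -0.47, fatty acid oxidation genes (24) -0.48 and branched-chain amino acid genes (15) -0.76. In none of these lists did any member differ at an unadjusted p under 0.05. Bright genes as a whole changed by -0.42 to -0.17 in the 3 brightest groups, and without Day 10 the medians were -0.07, -0.23, -0.08 and -0.16 in the same order. Without Day 6 the respiratory chain and citrate cycle medians were -0.27 and -0.28, and without Week 15 -0.23 and -0.14.

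Cell cycle genes were lower in the late period. Of 25 genes in the list 24 were tested; 23 of them had a lower late mean, 16 were lower and 1 was higher at an unadjusted p under 0.05 (4.55% and 17.9% of all genes), and none passed late against early at an adjusted p under 0.05 with limma. The median change was -1.47, while all tested genes had a median of 0.04 and the groups by level around the middle of the list had 0.45, -0.02 and -0.26. The median stayed between -1.64 and -1.16 when each array was left out. With quantile normalization it was -2.65 and 5 members passed at an adjusted p under 0.05 with limma, but with normexp background correction it was -0.02, with 12 members above and 12 below 0, where the median of all genes was 0.43. In LFC the same genes had a median change of -1.32, with 9 lower at an unadjusted p under 0.05. The difference of the change between the diets had a median of -0.14 and no member reached an unadjusted p of 0.05.

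The lower level was reached before the late period. The median level of the list was -0.73, -1.34, -0.74 and -1.06 on the early arrays, -2.04, -2.15 and -2.10 on Weeks 3, 6 and 9, and -1.86, -2.24 and -2.09 late. All 6 later arrays lay below all 4 early ones, and the middle period differed little from the late. Birc5 (survivin), a mitotic passenger protein and inhibitor of apoptosis, was at 1.18, 0.62, 0.98 and 0.03 early, -0.45, -1.66 and -1.09 in the middle, and -1.19, -1.47 and -2.09 late. It fell along the trend by 2.10 per 100 days (adjusted p = 0.0203 with limma), and its late mean was 4.89-fold below the early one. The mitotic kinase Plk1 fell by 1.36 per 100 days (adjusted p = 0.0229; late minus early -1.53, and 0.02 with normexp correction) and the centromeric histone Cenpa by 1.48 (adjusted p = 0.0471, limma). Cenpa and Bub1 lie outside the rule for named genes and were chosen after their values were seen. Bub1, a spindle checkpoint kinase, went the other way, from -0.18 to 1.14 early to 2.72, 2.32 and 4.76 late, and rose along the trend (adjusted p = 0.0254 with limma). The proliferation antigen Mki67 was at 0.78, 0.38, 1.39 and 1.0 early, -0.39, -0.27 and -1.14 in the middle and -0.38, 0.31 and -0.35 late, a difference of -1.03 (SE 0.39, adjusted p = 0.16 with limma). Its late arrays lay just below the early ones, and a second probe differed by -2.33. Top2a, the topoisomerase of dividing cells, had overlapping periods and a difference of -0.80, and its second probe differed by 0.54.

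Among the lower genes with the smallest p values by the same rule, Cenpf and Cdca8 act at the kinetochore and centromere, and Tk1 makes thymidine phosphate for DNA synthesis. Late against early the differences of Cenpf, Cdca8 and Tk1 were -2.96, -2.25 and -2.02 (each with an adjusted p of 0.0654 with limma), although with normexp correction Cenpf differed by 0.09. Cdca8 was at 0.22, 0.41, 0.54 and -0.43 early, -1.36, -1.55 and -2.36 in the middle and -1.80, -1.95 and -2.47 late. Like the list as a whole, it had reached its late level by the middle period, but a second probe of Cdca8 differed by -0.10. Along the trend Cenpf and Cdca8 fell (adjusted p = 0.0254 and 0.0221 with limma), and Tk1 had an adjusted p of 0.0537. Cenpf and Tk1 were well above background on 1 of 3 late arrays each, so their late levels are near the background. Cdk1 (Cdc2a on the array), the mitotic cyclin-dependent kinase, was not well above background on any of the 3 late arrays and was at least 3.16-fold lower late (adjusted p = 0.0825, limma), a bound set by the lowest signal well above background on those arrays; with normexp correction its difference was 0.31.

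Promoters of the cell cycle list were read for TTTGAA, the core of the CHR element that is known for cell cycle regulation. The 250 bases before the start site of the RefSeq gene models (GRCm38.p6) were searched on both strands; 21 of the 24 tested members had an entry and 6 of these (28.6%) held the motif, against 18.3% of all 27025 genes. The stretches of Mki67, Cdk1 and Cdc20 are shown because they hold it and because these genes mark division; capitals mark the motif on the gene's strand, and a match is a description of the letters only. Mki67 is at chr7:135716380-135716515, Cdk1 at chr10:69352913-69353012 and Cdc20 at chr4:118437344-118437443, all on the minus strand and all ending at the base before the start.
Mki67: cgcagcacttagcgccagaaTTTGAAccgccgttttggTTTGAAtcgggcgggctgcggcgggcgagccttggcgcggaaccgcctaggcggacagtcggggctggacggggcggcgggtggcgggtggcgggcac
Cdk1: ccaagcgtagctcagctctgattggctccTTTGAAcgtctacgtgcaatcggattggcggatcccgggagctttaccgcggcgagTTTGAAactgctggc
Cdc20: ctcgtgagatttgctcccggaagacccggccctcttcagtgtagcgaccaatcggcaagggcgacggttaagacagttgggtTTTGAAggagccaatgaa

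Interferon-stimulated genes were the other list with many lower members. All 16 genes were tested; 15 had a lower late mean, 7 were lower at an unadjusted p under 0.05 (4.55% of all genes), and 4 fell along the trend at an adjusted p under 0.05 with limma, where 0.395% of all genes fell. The median change was -1.09 and stayed between -1.39 and -0.90 when each array was left out. It was -0.94 with quantile normalization, -0.98 with cyclic loess and -1.14 with normexp correction. Without both Week 12 and Week 18 the number lower at an unadjusted p under 0.05 was 3, and without both Day 10 and Week 3 it was 11.

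Ifit3, an antiviral protein that binds RNA complexes, was at 2.35, 3.09 and 1.64 on Day 6, Day 14 and Week 0 (the Day 10 spot was an outlier and was left out), at 1.30, 1.11 and 0.46 in the middle and at 0.01, 0.28 and -0.01 late. Each later period lay below the one before it. It fell by 1.96 per 100 days (adjusted p = 0.0267 with limma) and was 4.82-fold lower late than early. Oasl2, a 2'-5' oligoadenylate synthetase-like protein, fell from 2.07, 1.04, 2.43 and 1.35 early to -0.27, 0.16 and -0.42 late (trend -1.70 per 100 days, adjusted p = 0.0263 with limma). Usp18, which removes Isg15 from proteins, and Irf7, the transcription factor that amplifies type I interferon, fell by 1.61 and 2.0 per 100 days (adjusted p = 0.0258 and 0.0364). Ifit1 did not follow them: it was at -0.83 to 1.92 early and at 0.00, 0.94 and 0.04 late, with overlapping periods and a difference of -0.48 (SE 0.66). In LFC the list had a median change of -1.31 with 3 members lower at an unadjusted p under 0.05. The LFC medians by array ranged from -1.75 to 2.16, lowest on Weeks 3, 9 and 12, which are among the LFC arrays with low immediate early genes. The diet difference had a median of 0.09 over the 16 genes.

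**Figure D4:**
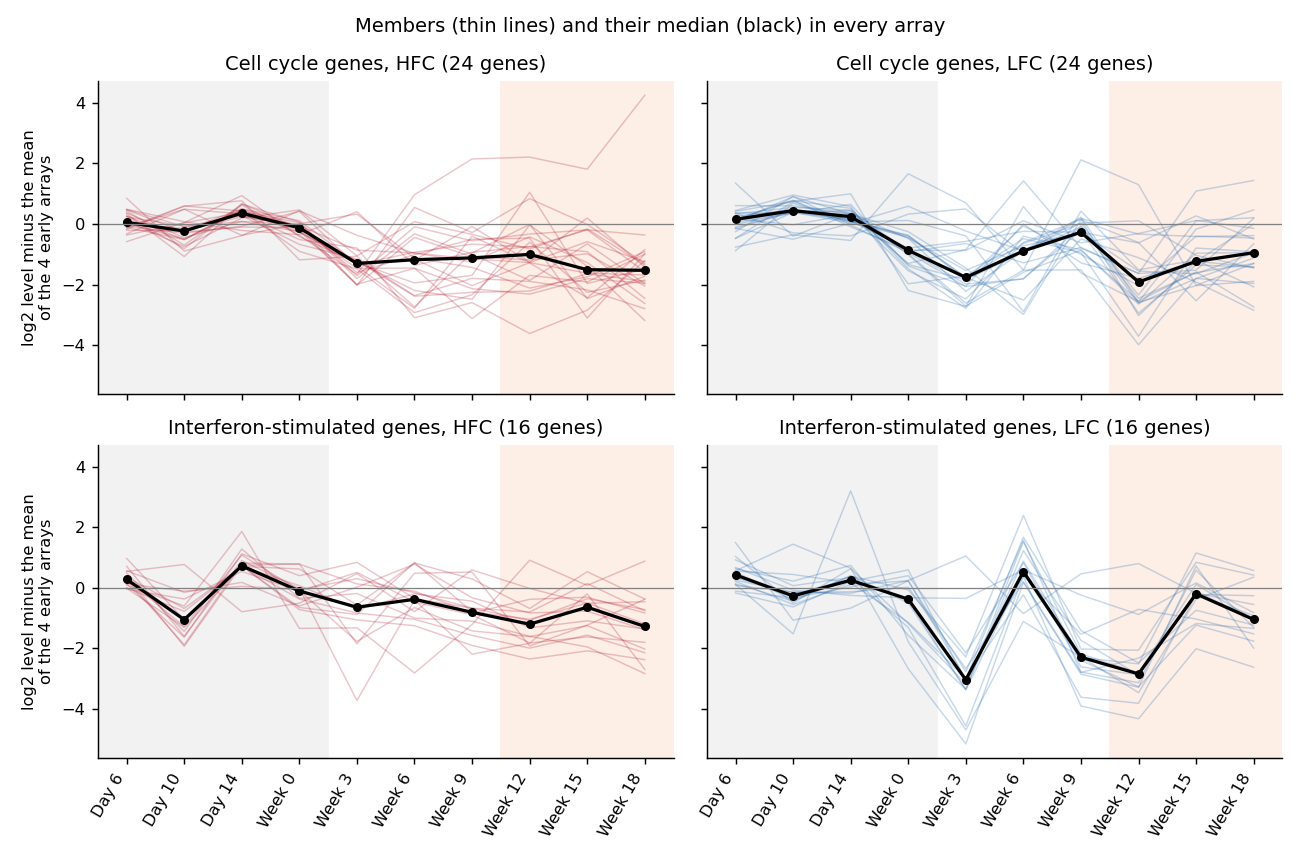
Level of each tested cell cycle gene (top, 24 genes) and interferon-stimulated gene (bottom, 16 genes) minus its mean on the 4 early arrays of the same diet (log2, y axes), on each HFC (left) and LFC (right) array in order of time (x axes); thin lines are genes and the black line is their median. In HFC the cell cycle median is lower on all arrays from Week 3 on, and the interferon median is lowest on Weeks 12 and 18; in LFC the interferon median is lowest on Weeks 3, 9 and 12.

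Guanylate binding and immunity related GTPases, which interferon induces and which attack membranes around intracellular pathogens, were also among these genes. Iigp1 was at 5.32, 4.90, 5.11 and 5.02 early, 3.75, 3.91 and 3.94 in the middle, and 3.29, 3.27 and 2.75 late. The 3 periods did not overlap, and each step was downward. Late was lower than early by 1.98 (SE 0.31, adjusted p = 0.0654), and the trend of -1.72 per 100 days passed (adjusted p = 0.0177 with limma). Mpa2l (now Gbp6), a guanylate binding protein, was at 1.47, 1.91, 1.29 and 0.82 early and -1.73, -0.94 and -1.46 late, and fell by 2.48 per 100 days (adjusted p = 0.015 with limma). A second probe of Mpa2l differed by 0.26. In LFC Iigp1 was lower late by 1.43 and Mpa2l by 2.27. Among 14 antigen presentation genes 3 were lower at an unadjusted p under 0.05 and none was higher: Tap1, the peptide transporter of the class I pathway, and the immunoproteasome subunits Psmb8 and Psmb9. Tap1 was at 4.90, 4.83, 4.22 and 4.00 early and 2.14, 3.00 and 2.70 late, and it fell by 1.53 per 100 days (adjusted p = 0.0425 with limma), with a second probe at -2.20. The class II genes H2-Aa and H2-Ab1 differed by -0.60 and -0.71 and did not reach an unadjusted p of 0.05.

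The interferon list was read for GAAANNGAAA, the core spacing of the interferon-stimulated response element, in the same 250 bases on both strands. 11 of the 16 members had a promoter entry and 7 of these (63.6%) held it, against 3.46% of 27025 genes. Ifit3, Oas1a and Bst2 are shown since they were lower late at an unadjusted p under 0.05 and hold it; Oasl2 and Irf7, which fell along the trend, do not hold these letters in this window. Ifit3 is at chr19:34583353-34583528 (plus strand), Oas1a at chr5:120907526-120907625 (minus) and Bst2 at chr8:71537473-71537622 (minus). Capitals mark the motif or, in Ifit3, its reverse complement, and overlapping matches run together in Oas1a and Bst2.
Ifit3: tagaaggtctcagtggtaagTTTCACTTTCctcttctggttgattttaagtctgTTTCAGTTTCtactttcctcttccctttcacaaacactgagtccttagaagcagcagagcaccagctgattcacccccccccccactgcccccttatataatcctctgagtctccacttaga
Oas1a: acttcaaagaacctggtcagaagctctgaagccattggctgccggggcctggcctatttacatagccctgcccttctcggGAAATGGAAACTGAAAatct
Bst2: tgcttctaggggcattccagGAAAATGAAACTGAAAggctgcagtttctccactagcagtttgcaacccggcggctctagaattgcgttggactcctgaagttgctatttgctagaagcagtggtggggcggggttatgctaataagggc

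Lipid genes changed less. Of 22 genes of cholesterol synthesis and uptake 19 had a lower late mean, with a median of -0.51 (LFC -0.74); 4 were lower and 1 was higher at an unadjusted p under 0.05, and none passed in either fit. Squalene epoxidase (Sqle), a rate-controlling enzyme, was at -1.28, -0.75, -1.05 and -1.19 early, -2.22, -1.97 and -2.21 in the middle and -2.31, -1.99 and -2.54 late. The early arrays were separate from all 6 later ones, and the difference was -1.21 (SE 0.32, adjusted p = 0.078 with limma). Cyp51, the lanosterol demethylase, differed by -1.95 (SE 0.61), and by 0.60 with normexp correction. For Cyp51, 2 other probes differed by -0.89 and 0.33, and the probe kept was well above background on 1 of 3 late arrays. Msmo1 (Sc4mol on the array), a sterol methyl oxidase, differed by -1.07 and was chosen after its values were seen. Of 18 fatty acid synthesis genes none reached an unadjusted p of 0.05 and the median was -0.02; Fasn, the fatty acid synthase, was at 5.65 to 7.02 early and 6.08 to 7.06 late, with its spot saturated on Day 10 and Week 3.

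Of 25 genes of lipid uptake, storage and lipolysis 2 were lower at an unadjusted p under 0.05, a share near the 4.55% of all genes, and none passed. The list's median was -0.41 and, without Day 10, 0.19. Lpl, which frees fatty acids from circulating triglyceride, was at 5.27, 6.49, 5.67 and 5.39 early and 4.70, 5.11 and 4.57 late, a difference of -0.91 (SE 0.40, adjusted p = 0.211 with limma). All 3 late arrays were below all 4 early ones, and in LFC the difference was 0.35. The Lpl spot was saturated on Day 10, without which the difference was -0.65. Abhd5, the coactivator of adipose triglyceride lipase, differed by -1.06 (SE 0.47).

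Among adipokines and batokines (17 tested) 1 gene was lower at an unadjusted p under 0.05. Mest, an imprinted gene known for marking fat expansion in young mice, was at 1.25, 1.86, 1.67 and 1.66 early, at -1.68, -0.15 and -0.44 in the middle and at -0.90, -0.12 and -0.61 late. It was high on all 4 early arrays and low on all 6 later ones, and the late arrays were no lower than the middle ones. Late was lower than early by 2.16 (SE 0.43, adjusted p = 0.0654) and middle lower than early by 2.37 (SE 0.43, adjusted p = 1.0), both with limma, while the linear trend had an adjusted p of 0.135. In LFC Mest was 1.83 lower late, and there Week 0 was already at -0.58. Leptin (Lep) and adiponectin (Adipoq) had overlapping periods, with differences of 0.33 (SE 1.09) and -0.36 (SE 1.16; 0.61 without Day 10, where the Adipoq spot was saturated). Of 19 insulin and IGF pathway genes Igfbp4 and Igfbp2, binding proteins that hold IGF, were higher at an unadjusted p under 0.05, a smaller share than the 17.9% of all genes. Igfbp4 was at 1.75, -1.95, 0.45 and 0.32 early and 3.38, 3.02 and 2.43 late, a difference of 2.80 (SE 0.79, adjusted p = 0.0883 with limma) with no overlap, and a second probe differed by 0.12. In LFC Igfbp4 was at -0.81 on Week 12 and at 4.70 and 3.99 on Weeks 15 and 18.

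Immune and stromal markers were mixed. Neutrophil and mast cell genes (14 tested) had the highest median change of the 36 lists under this scaling, 2.19, with 2 higher and 1 lower at an unadjusted p under 0.05 and none passing. The share higher was below the 17.9% of all genes, and the median was 1.15 without Day 10, 1.49 without Week 12, 1.20 with quantile normalization and 0.66 in LFC. The mast cell genes in it did not move together: the tryptase Tpsb2 and the IgE receptor chain Fcer1a were higher by 2.92 and 2.49, the stem cell factor receptor Kit was lower by 1.56, and the carboxypeptidase Cpa3 differed by -0.67 with overlapping periods. The Fcer1a periods overlapped as well, with Week 12 at -3.93 and Day 10 at -3.67, and with quantile normalization Fcer1a differed by 1.64. The neutrophil alarmin S100a8 was at -2.98 to 2.86 early and 2.32 to 4.27 late (difference 2.46, SE 1.38). Of 19 lymphocyte genes Cd3e, a chain of the T cell receptor complex, rose along the trend by 2.43 per 100 days (adjusted p = 0.0441 with limma). That is 1 of 19, a smaller share than the 7.15% of all genes. Other T cell genes of the list did not all go with it. Cd3d differed by 0.44 with overlapping periods. Lck and Cd247, chosen here after their values were seen, differed by -1.87 and -1.12 (adjusted p = 0.224 and 0.236 with limma). For Cd247, 2 other probes differed by 0.91 and 0.92. Of the 19 genes 12 differed above and 7 below 0. The lymphocyte median was 0.44 with the 75th percentile and -0.40 with quantile normalization, so its direction depends on the scaling. Macrophage genes (20 tested) had a median of -0.02, with 1 higher and 1 lower at an unadjusted p under 0.05; the lower one was Emr1, which encodes F4/80 (-1.31, SE 0.55; a second probe at 0.52). Of 25 collagen and matrix genes 3 were lower, the basement membrane collagens Col4a1 and Col4a2 and the matrix protein Postn, and in LFC 6 were lower with a median of -1.18 against -0.18 in HFC. In bulk tissue a lower number of cells of a type and less RNA per cell cannot be told apart.

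Single members of other lists also passed along the trend. Tfeb (Tcfeb on the array), the transcription factor of lysosomal genes, was at -4.50, -3.95, -3.40 and -4.56 early and -1.77, -3.07 and -0.61 late, and rose by 2.09 per 100 days (adjusted p = 0.0289 with limma). Its late arrays were all above the early ones and far from equal, and the median change of genes in its level group was 1.08. The 18 tested lysosome genes as a whole had a median of -0.30, with 1 higher and 1 lower at an unadjusted p under 0.05. In the integrated stress response list (16 tested) 3 genes were lower at an unadjusted p under 0.05 and none passed: Psat1 of serine synthesis (-1.05), Mthfd2 of mitochondrial folate metabolism (-0.91) and Ddit4, an inhibitor of mTORC1 (-0.98). Ribosomal proteins (24) had a median of -0.11 and proteasome subunits (20) of -0.61.

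**Figure D5:**
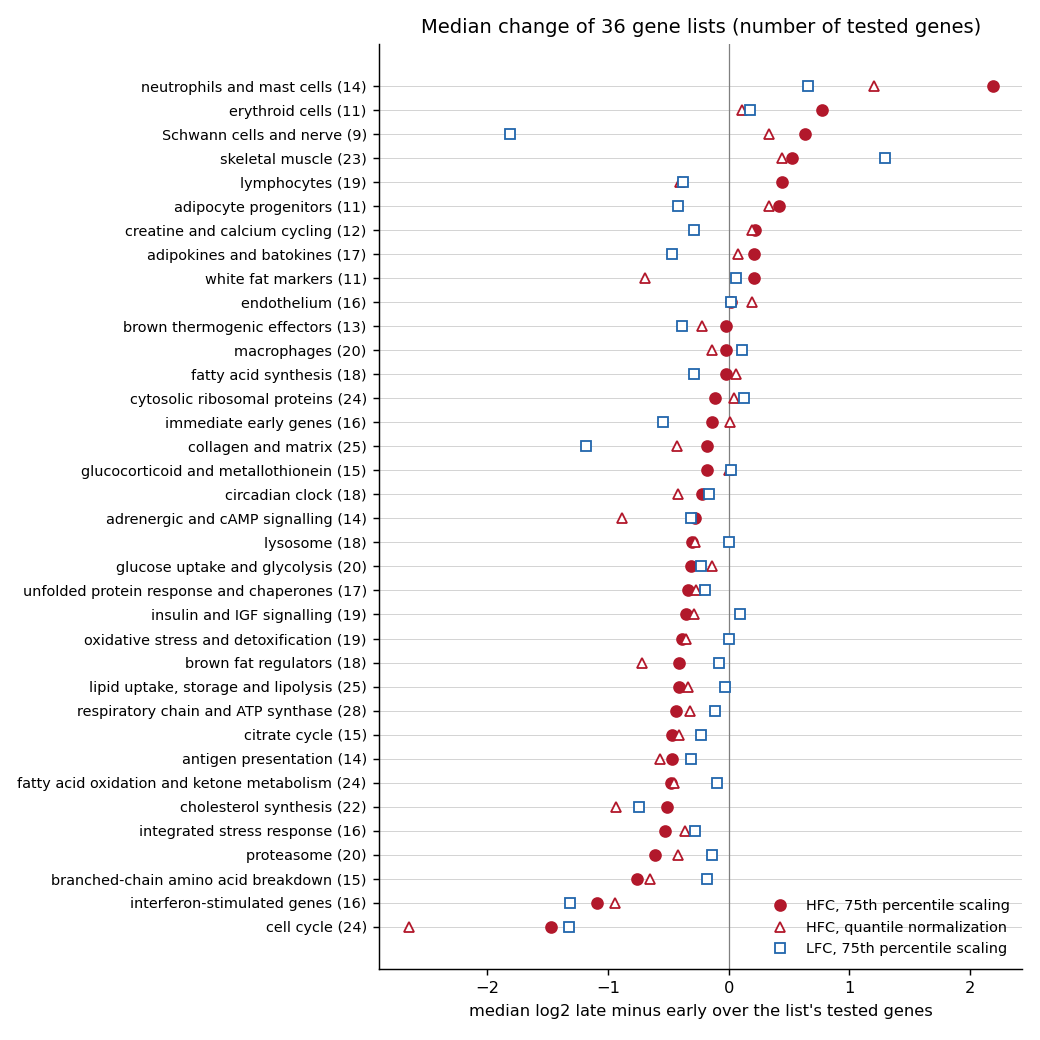
Median late minus early difference (log2, x axis) over the tested genes of each of 36 lists (y axis, number of tested genes in brackets), for HFC with the 75th percentile scaling, HFC after quantile normalization, and LFC. Cell cycle and interferon-stimulated genes lie lowest in HFC (-1.47 and -1.09) and are low in LFC as well (-1.32 and -1.31), and neutrophil and mast cell genes lie highest (2.19).

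The change with time was compared between the diets in a fit of all 20 arrays. No gene passed an adjusted p of 0.05 with limma; 1820 genes changed more upward in HFC (8.35%) and 197 more downward (0.904%) at an unadjusted p under 0.05. With quantile normalization the split was 1015 upward and 1261 downward, again with no gene passing. With the labelled time point as a block, that is with the HFC minus LFC difference at each time point, there were 0 calls as well (3193 at an unadjusted p under 0.05, smallest adjusted p = 0.0884). The smallest p values belonged to Rnf208, Adh4 and Sh2d2a. Adh4, an alcohol dehydrogenase that oxidises retinol, was at -6.59, -4.81, -4.45 and -5.22 early and at -1.97, -2.62 and -0.07 late in HFC, and at -5.04, -3.16, -4.52 and -5.47 early and -4.88, -5.43 and -4.12 late in LFC. Its late HFC arrays stood above all others, and the difference of the changes was 3.98 (adjusted p = 0.527 with limma). Rnf208, a ubiquitin ligase, and Sh2d2a, a T cell adaptor, had differences of 3.71 and 3.68 (adjusted p = 0.527 each). Schwann cell and nerve genes differed in direction between the diets without a call: of 9 tested, 8 had a higher late mean in HFC (median 0.63), while the LFC median was -1.81. With 1 HFC array left out the HFC median was 0.16 to 1.21. The list's LFC level was -2.97, -1.46, -2.0 and -2.18 on Weeks 0, 3, 9 and 12, the LFC arrays set apart above. On the rest of the LFC arrays it was -0.65 to 2.58, and the part of this split in the LFC median was not tested.

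The steps between the periods were compared in the same way. Middle against early called 0 genes with limma, with 151 higher (0.693%) and 327 lower (1.5%) at an unadjusted p under 0.05. Late against middle also called 0, with 3782 higher (17.4%) and 557 lower (2.56%). The cell cycle median was -1.11 from early to middle, and Sult1e1 differed by 0.69 between middle and early (adjusted p = 1.0 with limma).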

How the data were processed

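Total RNA of brown adipose tissue was labelled with Cy3 and hybridised to 1-colour Agilent arrays, and the authors' Feature Extraction (10.5.1.1 per the file headers) gave the deposited signal intensity of each spot, corrected for background. Levels were log2 of that intensity minus the 75th percentile of the array, with outlier spots left out. Brightness over background limits the precision of dim genes. A gene was represented by its probe with the highest mean. Of 29411 gene names, 21785 exceeded background clearly on 3 or more HFC arrays and were tested with limma 3.58.1 in R 4.3.3 (two-sided, Benjamini-Hochberg over all genes, threshold 0.05), after a check on simulated data. Of 40628 probes, 85.4% were matched to RefSeq names. The deposited log2 table, which the authors computed relative to LFC of the same time point, entered only alternatives of the diet difference. Its Week 15 column was either left out or read in array order. That column matched the arrays by order (r = 0.976) and not by probe name (r = -0.0046). Named were the 6 smallest p values in each direction among known genes well above background on every array of the higher period with periods that did not overlap, the first 2 genes of each of 36 lists with up to 4 members of smallest p, and 3 genes of the diet difference. The members and lists were chosen with earlier results of these data known. Normalization, background correction, filters, covariates, weights, time scales and the arrays included were varied. Some genes that this rule names are not reported here.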

Additional observations from a re-analysis of the deposited data

Results flagged for a closer look

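Among the 4 early HFC arrays, 1 array lay far from the other 3 in 6 of the 88 genes looked at, and chance alone flags about 1 in 20 such groups. Fos was at -3.45 on Day 10 and at 5.34 to 5.88 on the others. Gbp1 was at -4.22 on Day 10 (others 0.10 to 0.79) and Gbp4 at 0.82 (others 2.29 to 2.47). The immunoglobulin J chain gene Igj was at 0.33 on Day 14, with the others at -2.88 to -2.37. Kit was at -0.68 on Week 0 (others 0.38 to 0.55), and Tpsb2 at -5.29 (others -3.45 to -3.31).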

How the results depend on the processing

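Late against early in HFC, which called 1 gene, called 113 with quantile normalization, 344 with all 20 arrays in the fit, 1197 with array weights (in 1 of the weighted fits the estimation stopped short of its tolerance) and 8 among genes well above background on all 10 HFC arrays. It called 0 with normexp correction, array brightness as a covariate, no filter on dim probes, Day 14 and Week 0 averaged, or only the 7 early and late arrays (2239 to 6699 at an unadjusted p under 0.05). The methods' t-test called 4243 at p under 0.05 and 1 after Benjamini-Hochberg, and 1 was called when every probe was tested. Of the alternatives chosen after seeing the data, 20 genes were called without Day 10 and Week 3, 19 with quantile normalization of genes well above background on every array, and 0 without Week 12 and Week 18. Leaving out 1 array gave 0 to 1291 calls, the highest without Week 15, with 812 without Week 3 and 8 without Week 9. The trend, with 1643 calls, gave 862 with quantile normalization, 487 among genes well above background on all 10 arrays, 811 with cyclic loess, and 0 with normexp correction, brightness, log2 of days, the order of the time points, or without Week 12 and Week 18. Leaving out 1 array gave 0 (without Week 18) to 1840 trend calls, with 460 without Week 0 and 508 without Week 12. Late against middle called 767 with brightness and 30 with quantile normalization, and 0 to 26 with 1 array left out. The diet difference called 1389 genes with array weights and 0 otherwise, among them the labelled time point as a replicate block, slide as a random block and the deposited table. Scan day as a random block was not run for HFC, where each array had its own, and neither was slide.

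The cell cycle median was -2.65 with quantile normalization, -0.02 with normexp correction and -1.64 to -1.16 with 1 array left out. The number of its members lower at an unadjusted p under 0.05 was 6 with normexp correction, 10 with brightness and 10 to 17 with 1 array left out. For interferon-stimulated genes it was 3 without Week 12 and Week 18 and 11 without Day 10 and Week 3. Some differences changed sign, and the cause was not tested. With normexp correction these were, of genes, Cd247 (0.11), Cdk1 (0.31), Cenpf (0.09), Cidea (-0.54), Cpa3 (0.56), Cyp51 (0.60), Fasn (-0.35), Irgb10 (1.01), Mthfd2 (0.87), Plk1 (0.02), Top2a (0.85) and Ucp1 (-0.16), and of list medians the circadian clock (0.07), skeletal muscle (-0.14), adipokines (-0.22), creatine and calcium cycling (-0.01) and endothelium (-0.67). With brightness they were Adipoq (0.40), Adrb3 (0.57), Cd3d (-0.17), Cidea (-0.55), Fasn (-0.09), Fos (-1.12), Gbp1 (-2.48), Ppargc1a (0.87) and Ucp1 (-0.38). With quantile normalization they were, of genes, Cd3d (-0.31), Gbp1 (-0.35) and Lep (-0.81). Of list medians they were white fat markers (-0.69), lymphocytes (-0.40), fatty acid synthesis (0.06), immediate early genes (0.01) and ribosomal proteins (0.04). Lep was at -0.09 with cyclic loess and -0.02 with Day 14 and Week 0 averaged. Among the list medians that turned with cyclic loess were white fat markers (-0.28), lymphocytes (-0.28) and macrophages (0.15). Without Day 10 and Week 3 they were Adipoq (0.61), Adrb3 (0.66), Fos (-1.05), Gbp1 (-1.07) and Ppargc1a (0.51). Without Week 12 and Week 18 they were Cidea (-0.80), Fasn (-0.12), Ifit1 (0.13), Lep (-0.83), Ucp1 (-0.34) and the unfolded protein response median (0.11). With 1 array left out the ranges that crossed 0 were -0.84 to 0.61 for Adipoq, -1.07 to 0.66 for Adrb3, -0.13 to 0.86 for Cidea, -1.05 to 2.06 for Fos, -1.07 to 0.60 for Gbp1, -1.21 to 0.10 for Irgb10, -0.35 to 1.30 for Lep, -1.03 to 0.51 for Ppargc1a and -0.13 to 0.63 for Ucp1. The other named genes kept their sign in every alternative run. The medians of 20 of the 36 lists turned sign in some alternative, none over 0.77 in size, and those of the cell cycle and interferon-stimulated lists did not. Not all of the list medians that turned are given here. Dim signals limit genes such as Cenpf, Sult1e1 and Elovl3, which were not well above background on every array.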

Other observations

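The genes in this part were chosen after their values were seen, so they are values only. Apoa4, an apolipoprotein of the intestine and liver, was at -6.58, -5.96, -5.07 and -5.86 on the early HFC arrays, at -6.10, -5.99 and -3.97 in the middle and at -1.28, -1.98 and 0.29 late. Every late array lay above every other one, the difference was 4.88 (SE 0.69, adjusted p = 0.0654 with limma), and the trend was 4.54 per 100 days (adjusted p = 0.0142 with limma). In LFC Apoa4 differed by 0.18 with overlapping periods. The median change of HFC genes in the level group of Apoa4 was 1.69, which is also the group of Ighm below, while Cxcl13 lies in the group with 1.08 and Ighg in that with 0.45.

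Of 12 further guanylate binding proteins and immunity related GTPases that were looked at (array names Gbp1 to Gbp6, Irgm1, Irgm2, Igtp, Tgtp, Ifi47 and Irgb10), 11 had a lower late mean in HFC, by 0.52 (Irgb10) to 2.20 (Tgtp), and Gbp1 differed by 0.12. The HFC periods overlapped for Gbp1, Gbp4, Gbp5, Igtp, Ifi47 and Irgb10 (unadjusted p = 0.107 to 0.953 with limma). The others were lower at an unadjusted p under 0.05, as were 4.55% of all genes. The level groups of these genes had median changes of -0.42 to -0.17, except 1.69 for that of Irgb10. The array's Gbp1 is now named Gbp2b and its Gbp6 is now Gbp7. A second probe of Tgtp differed by 0.05. Irgm1 fell along the trend by 1.31 per 100 days (adjusted p = 0.0387 with limma). In LFC all 12 had a lower late mean, with differences of -2.59 to -0.82. The LFC periods overlapped for all of them but Gbp3 and Irgm2. Only these reached an unadjusted p under 0.05 there (0.028 and 0.0497 with limma). The largest LFC difference was that of Gbp1, which was at -7.57 on Week 12, an LFC array set apart above for its brightness. On LFC Weeks 15 and 18 Gbp1 was at 0.16 and -0.03, against an early mean of 0.11.

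Genes of plasma cells and B cell follicles had higher late means in both diets. The heavy chain genes Ighg and Ighm (Igh-6 on the array) rose along the HFC trend by 1.89 and 2.26 per 100 days (adjusted p = 0.0253 and 0.0416), and so did Cxcl13, the chemokine that draws B cells (3.29, adjusted p = 0.0373), all with limma. Late against early in LFC they were 1.70, 2.23 and 3.39 higher with no overlap between the periods. Igj differed by 2.22 in HFC and 4.63 in LFC.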
